A study of Bos taurus with 6 samples.

Results

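The 79 genes described here are nuclear genes of the oxidative phosphorylation (OXPHOS) complexes, as measured by RNA sequencing in BEND, an established cell line of bovine endometrial epithelium. They were picked by name, as the rows of the counts table with NDUFA, NDUFB, NDUFC, NDUFS or NDUFV symbols, SDHA to SDHD, any symbol that starts with UQCR or ATP5, and COX followed by a digit of 4 to 8, at most 1 letter of A to C and an optional number, and by a summed count of at least 60 over the 6 libraries. COX4I1 and COX7A2L do not have that form and are described apart. The name patterns matched 81 of the 20958 genes in the table, and 79 of these reached the minimum. All 79 were among the 12217 genes tested. One group, called mimic below, was transfected with bta-miR-200b mimic, a synthetic RNA that supplies the mature form of this bovine microRNA. The control group received mimic NC, a negative-control RNA, and is called NC. Each group had 3 libraries, and cells of both groups grew in DMEM with fetal bovine serum and were transfected near confluence. The labels also give cell apoptosis as a treatment for both groups. They give neither a dose nor a time after transfection, and they do not say that replicates came from separate cultures. The p-values therefore reflect only the variation among these 6 libraries, part or all of which may be technical.

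Oxidative phosphorylation is carried out by protein complexes of the inner mitochondrial membrane. Complexes I and II pass electrons from NADH and succinate to ubiquinone, complex III passes them to cytochrome c, and complex IV, cytochrome c oxidase, passes them to oxygen. Complexes I, III and IV pump protons, and complex V, the ATP synthase, uses the resulting gradient to make ATP. Some central subunits of complexes I, III, IV and V are encoded in mitochondrial DNA, and the others, with all of complex II, in the nucleus. No mitochondrially encoded gene was in the counts table, so the report covers the nuclear genes alone.

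Library totals were 20281474 to 21129547 counts in the mimic libraries and 19212694 to 20253017 in the NC libraries. The epithelial keratins KRT8, KRT18 and KRT19 averaged 5529, 1048 and 4396 CPM in mimic libraries and 4494, 541 and 3917 CPM in NC libraries, where CPM is the count scaled to a common library total with TMM factors. CLDN4, another epithelial marker, had no read, ESRP1 had 12 reads over all libraries, and the stromal collagens COL1A1 and COL1A2 averaged 6852 and 11768 CPM in mimic libraries and 6622 and 11640 CPM in NC libraries. By the test described below 4.30% of all tested genes rose and 2.15% fell. Of 6 tested epithelial markers 5 rose with the mimic, KRT19 being the exception. Summed levels, mostly KRT8 and KRT19, were 10430 to 11852 CPM in mimic libraries and 8587 to 9303 CPM in NC libraries. EPCAM and KRT7 averaged 2.51 and 2.19 CPM in mimic libraries and only 0.0502 and 0.215 CPM in NC libraries. CDH1 averaged 36.5 CPM in mimic libraries and 11.3 CPM in NC libraries. Of 9 tested stromal markers 3 fell, and their summed levels were 23630 to 26345 CPM in mimic libraries and 25295 to 26685 CPM in NC libraries. The leukocyte markers PTPRC, CD3E and MS4A1 and the muscle marker MYOD1 were at 0. Summed levels of the leukocyte list were 2.80 to 2.93 CPM in mimic libraries and 3.67 to 4.34 CPM in NC libraries, and those of the endothelial list were 3.03 to 3.52 CPM in mimic libraries and 5.05 to 6.30 CPM in NC libraries. In these lists CD14 and PECAM1 fell with the mimic. The muscle list summed to 7.86 to 10.8 CPM in mimic libraries and 6.66 to 9.12 CPM in NC libraries. The part of these markers in the OXPHOS values was not tested. The first principal component of log2 CPM, with 51% of the variance, separated the groups, at −17.6, −19.2 and −11.8 in mimic libraries and 17.8, 14.4 and 16.4 in NC libraries. By counts, mimic replicate 3 differed less from NC replicate 3 than from mimic replicate 1, where the chi-square of the counts divided by its degrees of freedom was 8.28 and 11.5 for these pairs. It differed least from mimic replicate 2, at 7.15, and more from NC replicates 1 and 2, at 13.6 and 17.5.

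The comparison asked whether transcripts of the OXPHOS machinery change when miR-200b is overexpressed. None of the 79 genes reached a Benjamini-Hochberg adjusted p under 0.05 by quasi-likelihood testing in edgeR, while 4.30% of all tested genes were called higher and 2.15% lower. The lowest adjusted p was 0.0827, for NDUFA13. Their fold changes nonetheless lay mostly on one side, with 72 of 79 log2 fold changes below 0 against 49.7% of all tested genes. The median log2 fold change was −0.13, a difference in level of −8.76% relative to NC, and the median over all tested genes was 0.0009. Genes of a similar level, the 7374 other tested genes between 20 and 1000 CPM, had a median of 0.0017 with 49.5% below 0. At an unadjusted p under 0.05 there were 19 lower and 0 higher OXPHOS genes, or 24.1% and 0%, against 8.06% lower and 10.5% higher among all tested genes. DESeq2 called 1 of the 79 lower, COX6A1, against 2.25% of all tested genes, and limma-voom called 0, against 2.08%.

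The changes were small for every complex. The median log2 fold change was −0.13 for the 36 genes of complex I, −0.13 for the 4 of complex II, −0.12 for the 8 of complex III, −0.15 for the 12 of complex IV and −0.12 for the 19 of complex V. Counts below 0 were 31 of 36, 4 of 4, 7 of 8, 11 of 12 and 19 of 19 in the same order. For 77 of the 79 genes the log2 fold change was within 0.25 of 0, and the exceptions, COX7A1 and COX6B2, were the members with the fewest reads. The standard deviation of the fold changes over the 79 genes was 0.09 on the log2 scale and the median standard error of a single gene was 0.08. That standard deviation was 0.18 within complex IV, which holds COX7A1 and COX6B2, and 0.06 to 0.07 within each other complex. In bulk libraries, fewer cells with a transcript and less of it per cell cannot be told apart.

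**Figure D1:**
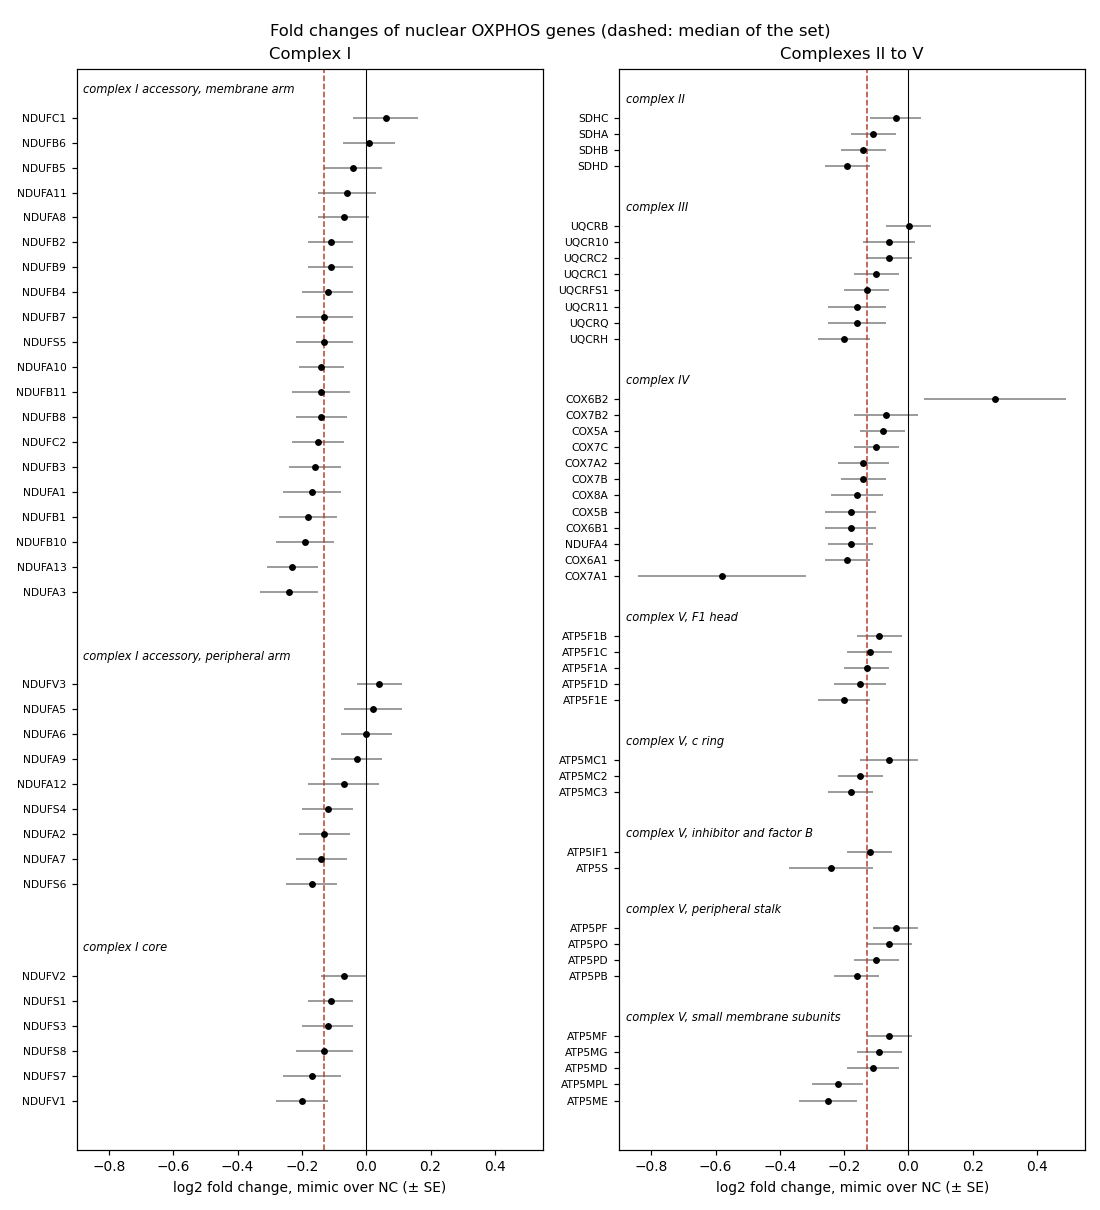
Log2 fold changes of mimic over NC for 78 of the 79 nuclear OXPHOS genes, by complex and role, with horizontal bars for ± SE from edgeR's fit (n = 3 libraries per group). The dashed line is the median of the 79 genes at −0.13, and 71 points lie to the left of 0, COX7A1 and COX6B2 being farthest from the rest.

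In most of the OXPHOS genes, and in their summed level, single libraries overlapped between the groups. Summed over the 79 genes, the 3 mimic libraries held 9199, 8733 and 8806 CPM, against 9942, 10037 and 9118 CPM for the 3 NC libraries, in replicate order. NC replicate 3 thus lay below mimic replicate 1 and close to the other mimic libraries. It was the lowest NC library for 72 of the 79 genes, against 34.8% of all tested genes. Mimic replicate 1 was the highest mimic library for 54 of the 79 genes, against 39.5% of all tested genes. For 19 of the 79 genes, or 24.1%, every mimic library was lower than every NC library, and for 0 the reverse held. Of all tested genes 10.4% were lower and 11.4% higher without overlap. Without NC replicate 3 the count was 55 of 79, against 16.6% of all tested genes, and without mimic replicate 1 it was 46, against 18.4%. It was 21 without mimic replicate 2 (13.2% of all tested genes), 22 without mimic replicate 3 (16.9%), 19 without NC replicate 1 (12.7%) and 22 without NC replicate 2 (16.1%). With NC replicate 3 left out the median log2 fold change of the OXPHOS genes was −0.18, and with NC replicate 1 left out it was −0.10.

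Cytosolic ribosomal protein genes had a nearly parallel profile over the libraries. The median over genes of log2 CPM, centred on each gene's mean of the 6 libraries, was −0.01, −0.09 and −0.08 for the OXPHOS genes in the mimic libraries, against 0.10, 0.11 and −0.04 in the NC libraries. For the ribosomal protein genes it was −0.03, −0.11 and −0.10 in the mimic libraries, against 0.13, 0.12 and −0.01 in the NC libraries. NC replicate 3 was the lowest NC library for 76 of 77 tested ribosomal protein genes. At an unadjusted p under 0.05 in edgeR's test 48 of the 77 (62.3%) were lower and 0 higher. For 36 (46.8%) every mimic library was lower than every NC library. Of all tested genes these lower shares were 8.06% and 10.4%. All 77 had a log2 fold change below 0, with a median of −0.15, and 3 fell in edgeR's test, RPS23, RPS26 and RPL12. Over all genes 263 were called lower. Without mimic replicate 2 or without NC replicate 1 no ribosomal protein gene was called, and 82 and 93 of all genes were called lower. The test called 14 ribosomal protein genes without mimic replicate 1 and 10 without NC replicate 3, where 243 and 153 of all genes were called lower. Ribosomal protein genes have near-identical copies, so their counts are uncertain. The part of a shared technical source in both profiles was not tested.

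**Figure D2:**
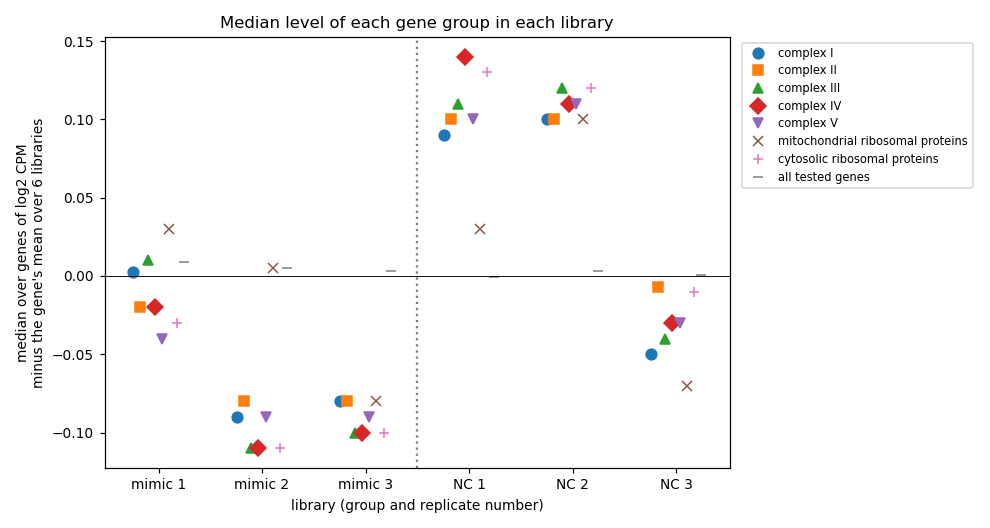
Median over the genes of a group of log2 CPM minus each gene's mean over the 6 libraries, by library, for the 5 OXPHOS complexes, both kinds of ribosomal protein genes and all tested genes. NC replicates 1 and 2 stand above 0 for each complex, while NC replicate 3 lies between −0.05 and −0.0069 and mimic replicate 1 between −0.04 and 0.01.

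In complex I, the core subunits encoded in the nucleus include those that carry the flavin, the iron-sulfur clusters and the ubiquinone site. All 7 nuclear core genes had a log2 fold change below 0, from −0.20 to −0.07. NDUFV1, the flavin subunit that accepts electrons from NADH, had 131, 109 and 108 CPM in mimic libraries and 133, 138 and 129 CPM in NC libraries. Its first mimic library lay among the NC values and the others well below them, and its log2 fold change of −0.20 ± 0.08 had an adjusted p of 0.15 in edgeR's test. With 1 library left out it ran from 0.0192 without mimic replicate 1, where the log2 fold change was −0.29, to 0.503 without mimic replicate 2. NDUFS7, an iron-sulfur subunit at the ubiquinone site, had 51.0, 41.7 and 40.1 CPM in mimic libraries and 50.7, 51.9 and 47.3 CPM in NC libraries. Here too mimic replicate 1 lay within the NC range and the other mimic libraries below it. Its log2 fold change was −0.17 ± 0.09 and its adjusted p in edgeR's test 0.315. These were −0.29 and 0.0456 without mimic replicate 1, −0.11 and 0.593 without mimic replicate 3, and the adjusted p was highest, 0.673, without mimic replicate 2. NDUFS8, which holds iron-sulfur clusters of the peripheral arm, had 81.3, 64.9 and 64.1 CPM in mimic libraries and 75.8, 82.2 and 72.5 CPM in NC libraries, so that its groups overlapped.

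NDUFS1, the largest iron-sulfur subunit, had 167, 181 and 176 CPM in mimic libraries and 192, 196 and 179 CPM in NC libraries. Its mimic replicate 1 was the lowest library, unlike in NDUFV1, and only NC replicate 3 fell within the mimic range. NDUFV2, an iron-sulfur subunit next to NDUFV1, had 106, 116 and 116 CPM in mimic libraries and 122, 115 and 118 CPM in NC libraries, with a log2 fold change of −0.07 ± 0.07. NDUFS1 overlaps an uncharacterised locus in the RefSeq annotation.

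Accessory subunits surround the core and serve its assembly and stability. Those of the membrane arm had a median log2 fold change of −0.13, with 18 of 20 below 0, and those of the peripheral arm −0.07, with 6 of 9 below 0. NDUFA13, also known as GRIM-19, had 71.7, 69.1 and 69.6 CPM in mimic libraries and 87.9, 85.1 and 74.1 CPM in NC libraries. Its mimic libraries lay close together and all below NC replicate 3, the lowest NC library, and the log2 fold change was −0.23 ± 0.08, with an edgeR adjusted p of 0.0827. With 1 library left out the adjusted p ran from 0.0372 without NC replicate 3 to 0.442 without NC replicate 1. NDUFA3, a small membrane-arm subunit, had the lowest fold change of complex I, −0.24 ± 0.09, with 37.1, 32.9 and 36.4 CPM in mimic libraries and 41.1, 44.8 and 39.6 CPM in NC libraries. The groups did not overlap, and its adjusted p in edgeR's test was 0.11. At the other end NDUFC1, a subunit of the membrane arm, had 26.5, 30.7 and 25.1 CPM in mimic libraries and 28.4, 26.9 and 23.6 CPM in NC libraries. Its groups overlapped throughout, at a log2 fold change of 0.06 ± 0.10, which was −0.03 without mimic replicate 2 and −0.01 without NC replicate 3.

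Complex II, succinate dehydrogenase, is shared with the citric acid cycle, and all 4 of its genes had a log2 fold change below 0. SDHA, the flavoprotein that oxidises succinate, had 461, 379 and 394 CPM in mimic libraries and 451, 458 and 425 CPM in NC libraries. The highest and the lowest library were both mimic libraries, and the log2 fold change was −0.11 ± 0.07. It was −0.20 without mimic replicate 1 and −0.05 without mimic replicate 2. SDHB, the iron-sulfur subunit, had 130, 120 and 124 CPM in mimic libraries and 142, 141 and 130 CPM in NC libraries, and its groups were separated by less than the last printed digit. SDHD, a membrane anchor, had 66.8, 72.7 and 70.6 CPM in mimic libraries and 81.2, 82.0 and 75.7 CPM in NC libraries, without overlap. Its log2 fold change of −0.19 ± 0.07 had an adjusted p of 0.159 in edgeR's test. SDHC, the other membrane anchor, had 67.5, 67.0 and 70.2 CPM in mimic libraries and 71.9, 73.7 and 64.4 CPM in NC libraries, and NC replicate 3 was its lowest library.

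In complex III, UQCRH, the hinge protein that aids the contact with cytochrome c, had the smallest p. It had 91.0, 79.7 and 83.5 CPM in mimic libraries and 101, 99.2 and 91.6 CPM in NC libraries, a log2 fold change of −0.20 ± 0.08 for which edgeR's adjusted p was 0.139. The groups were separated by the narrow step between mimic replicate 1 and NC replicate 3. UQCRFS1, the Rieske iron-sulfur protein, had 92.6, 103 and 103 CPM in mimic libraries and 113, 113 and 103 CPM in NC libraries. UQCRC1, a core protein, had 260, 223 and 229 CPM in mimic libraries and 250, 270 and 244 CPM in NC libraries, and UQCRC2, the other core protein, 146, 153 and 151 CPM in mimic libraries and 159, 165 and 146 CPM in NC libraries. In UQCRC1 the mimic replicate 1 lay within the NC range, and in UQCRC2 the NC replicate 3 was level with mimic replicate 1. UQCRB, a subunit near the ubiquinone site, had a log2 fold change of 0.00081 ± 0.07, at 91.1 ± 4.05 CPM in mimic libraries and 91.0 ± 1.31 CPM in NC libraries (SD, n = 3 each). UQCRH overlaps LRRC41, UQCRC2 overlaps PDZD9, and UQCRC1 and UQCRFS1 overlap uncharacterised loci.

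**Figure D3:**
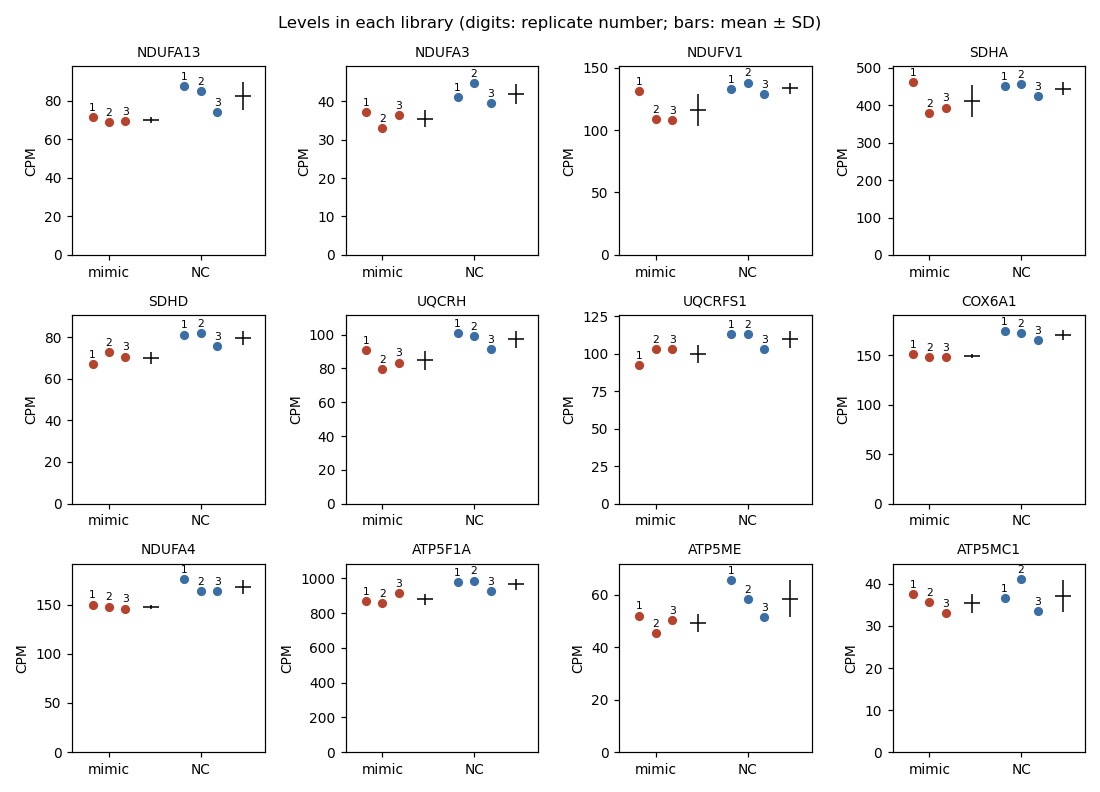
Level in CPM of 12 OXPHOS genes in each library, mimic in red and NC in blue, with the replicate number beside each point and the mean ± SD (n = 3) as a black bar; every axis starts at 0. NDUFA13, COX6A1 and NDUFA4, for example, separate without overlap. In NDUFV1 the mimic replicate 1 lies among the NC values, and in SDHA it lies above them.

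Complex IV had the lowest median of the complexes. COX6A1, the widely expressed form of subunit VIa, had 151, 148 and 148 CPM in mimic libraries and 174, 172 and 165 CPM in NC libraries. The mimic values were nearly equal and all below the NC values, the log2 fold change was −0.19 ± 0.07, and the adjusted p was 0.0961 in edgeR's test and 0.048 in DESeq2. NDUFA4, first assigned to complex I and later found in complex IV, had 150, 148 and 146 CPM in mimic libraries and 176, 164 and 164 CPM in NC libraries. Its groups did not overlap either, at a log2 fold change of −0.18 ± 0.07 for which edgeR's adjusted p was 0.138. COX6B1, which faces the intermembrane space, had 141, 120 and 126 CPM in mimic libraries and 153, 147 and 140 CPM in NC libraries, with an edgeR adjusted p of 0.17. With 1 library left out that ran from 0.0456 without mimic replicate 1 to 0.569 without NC replicate 1. COX5B, on the matrix side, had 139, 119 and 121 CPM in mimic libraries and 151, 149 and 131 CPM in NC libraries, and COX5A, its neighbour there, 136, 129 and 130 CPM in mimic libraries and 141, 150 and 126 CPM in NC libraries. Both overlapped between the groups.

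Several subunits of complex IV exist as a widely expressed form and a form of heart and skeletal muscle or of testis. Of the muscle forms, COX6A2 and COX8B had no read in any library, which allows a level of at most 0.142 to 0.156 CPM per library when 3 counts are taken as the floor (counting error only). The third, COX7A1, had 43, 29 and 22 reads in mimic libraries and 56, 40 and 40 in NC libraries, the member nearest above the minimum of 60 with 230 reads in all. Its log2 fold change of −0.58 ± 0.26 was the lowest of the 79, and edgeR's adjusted p was 0.227. It was −0.38 without mimic replicate 3 and −0.86 without mimic replicate 1. The widely expressed COX7A2 had 87.5, 83.4 and 86.9 CPM in mimic libraries and 99.4, 99.7 and 84.6 CPM in NC libraries, and COX8A 90.2, 83.5 and 87.0 CPM in mimic libraries and 97.3, 108 and 87.2 CPM in NC libraries. In both genes NC replicate 3 lay among the mimic libraries. COX6B2, the testis form of subunit VIb in other mammals, had 51, 48 and 65 reads in mimic libraries and 39, 47 and 46 in NC libraries, and its log2 fold change of 0.27 ± 0.22 was the highest of the 79, and edgeR's adjusted p was 0.576. It was 0.12 without mimic replicate 3 and 0.17 without NC replicate 1. COX6B2 overlaps GARIN5B.

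In complex V, all 19 genes had a log2 fold change below 0, from −0.25 to −0.04. ATP5F1A, the alpha subunit of the F1 head, had 867, 856 and 915 CPM in mimic libraries and 979, 987 and 927 CPM in NC libraries. The groups did not overlap, but mimic replicate 3 and NC replicate 3 were close, and the log2 fold change was −0.13 ± 0.07 for which edgeR's adjusted p was 0.283. ATP5F1B, the catalytic beta subunit, had 863, 825 and 826 CPM in mimic libraries and 906, 937 and 837 CPM in NC libraries, with NC replicate 3 within the mimic range. ATP5F1C, the gamma subunit of the rotating stalk, had 186, 191 and 182 CPM in mimic libraries and 213, 202 and 192 CPM in NC libraries, its groups just apart. ATP5F1B and ATP5F1C overlap uncharacterised loci, and ATP5F1B a microRNA gene as well.

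The c ring, which turns as protons pass, is made of a protein encoded by the genes ATP5MC1, ATP5MC2 and ATP5MC3, known in mammals to give the same mature subunit with different import signals. ATP5MC3 averaged 188 ± 9.25 CPM in mimic libraries and 213 ± 16.4 CPM in NC libraries (SD, n = 3 each), with overlap between the groups. ATP5MC2 had 182, 174 and 180 CPM in mimic libraries and 206, 200 and 189 CPM in NC libraries, without overlap. Their log2 fold changes were −0.18 ± 0.07 and −0.15 ± 0.07, with adjusted p values of 0.171 and 0.239 in edgeR's test. ATP5MC1 had 37.6, 35.6 and 33.1 CPM in mimic libraries and 36.6, 41.1 and 33.6 CPM in NC libraries, at −0.06 ± 0.09. Reads of similar coding stretches in these genes could be counted for another of them, and ATP5MC1 and ATP5MC2 overlap uncharacterised loci.

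Among the small membrane subunits ATP5ME, subunit e of the dimer interface, had the lowest fold change of complex V. It had 52.0, 45.5 and 50.2 CPM in mimic libraries and 65.5, 58.3 and 51.6 CPM in NC libraries, a log2 fold change of −0.25 ± 0.09 for which edgeR's adjusted p was 0.106. Leaving out NC replicate 3 gave −0.33 with an edgeR adjusted p of 0.0479. Leaving out NC replicate 1 gave −0.16 (0.604), and leaving out mimic replicate 2 gave −0.19 (0.441). NC replicate 3 lay within the mimic range, and ATP5ME overlaps MYL5. The peripheral stalk holds the F1 head still. The median of its 4 genes in centred log2 CPM was −0.10, −0.05 and 0.00062 in the mimic libraries and 0.05, 0.09 and −0.02 in the NC libraries, so that mimic replicate 1 was its lowest library. ATP5PF, subunit F6 of the stalk, had 144, 161 and 156 CPM in mimic libraries and 159, 171 and 146 CPM in NC libraries, the highest log2 fold change of complex V at −0.04 ± 0.07, and it overlaps GABPA. ATP5IF1, which inhibits ATP hydrolysis by the synthase, had 180, 166 and 166 CPM in mimic libraries and 190, 191 and 174 CPM in NC libraries, at −0.12 ± 0.07.

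The file's own pathway annotation placed 75 of the 79 genes in oxidative phosphorylation, the other members being ATP5IF1, ATP5S, ATP5MD and ATP5MPL. Subunits that the name patterns miss behaved alike in sign. COX4I1, the widely expressed form of subunit IV of complex IV, had 306, 265 and 277 CPM in mimic libraries and 333, 335 and 291 CPM in NC libraries, a log2 fold change of −0.18 ± 0.07 for which edgeR's adjusted p was 0.182. CYCS, which encodes cytochrome c, stood at −0.13 ± 0.07, NDUFAB1, the acyl carrier protein in complex I, at −0.11 ± 0.08, CYC1, cytochrome c1 of complex III, at −0.07 ± 0.08 and COX7A2L, a supercomplex factor, at −0.02 ± 0.07. None of these 5 passed. COX4I2 and NDUFA4L2, alternative forms known from low oxygen, had 1 and 21 reads over all libraries and were not tested.

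Genes that build or feed the complexes lay closer to 0. Of 55 tested assembly factors none passed, 39 had a log2 fold change below 0 and the median was −0.04. The nearest to the threshold was FMC1, an assembly factor of complex V, with 11.4, 8.78 and 11.8 CPM in mimic libraries and 16.2, 13.6 and 12.9 CPM in NC libraries. Its groups did not overlap, its log2 fold change was −0.42 ± 0.13, and its adjusted p in edgeR's test was 0.0502, and over 13 alternatives it ran from 0.00658 to 0.346, under 0.05 in 7 of them, among these without mimic replicate 3 and without NC replicate 2. Of 17 tested genes of pyruvate dehydrogenase and the citric acid cycle none passed, 11 were below 0 and the median was −0.03. SUCLA2, a succinyl-CoA ligase subunit, had the smallest p of these, at −0.21 ± 0.07 for which edgeR's adjusted p was 0.1. None of 27 tested protein import genes and none of 78 mitochondrial ribosomal protein genes passed, with medians of −0.04 and −0.05.

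Among 17 tested genes of metabolite exchange across the mitochondrial membranes 1 rose and none fell. Of all tested genes 4.30% were called higher and 2.15% lower. SLC25A10, the dicarboxylate carrier, had 82.9, 73.7 and 62.4 CPM in mimic libraries and 51.7, 59.0 and 46.9 CPM in NC libraries. Every mimic library was above every NC library, and the log2 fold change was 0.47 ± 0.10 for which edgeR's adjusted p was 0.00299. The list median was −0.07, and UCP2, an uncoupling protein, stood at −0.30 ± 0.10 for which edgeR's adjusted p was 0.0972.

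Regulators of nuclear OXPHOS genes, with factors that handle mitochondrial DNA and RNA, formed the single mitochondrial list with a median above 0. Of 25 tested none passed, 11 were below 0 and the median was 0.02. Over all tested genes 49.7% were below 0 and the median was 0.0009, so the list lay near them. TFAM, which packages and transcribes mitochondrial DNA, had 28.9, 36.2 and 35.6 CPM in mimic libraries and 28.8, 30.8 and 32.1 CPM in NC libraries, a log2 fold change of 0.14 ± 0.10 for which edgeR's adjusted p was 0.498. PPARGC1A, ESRRB and ESRRG, activators of OXPHOS genes in tissues of high oxidative demand, were too low to test. At an unadjusted p under 0.05 in edgeR's test, 4 of 55 assembly factors (7.27%) were lower and 1 higher. The counts were 1 (5.88%) and 0 of 17 for the citric acid cycle list, and 3 (17.6%) and 2 of 17 for metabolite exchange. They were 1 (1.28%) and 0 of 78 for the mitochondrial ribosome, and 0 and 0 for the 27 import genes and the 25 regulators. Of all tested genes 8.06% were lower and 10.5% higher.

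**Figure D4:**
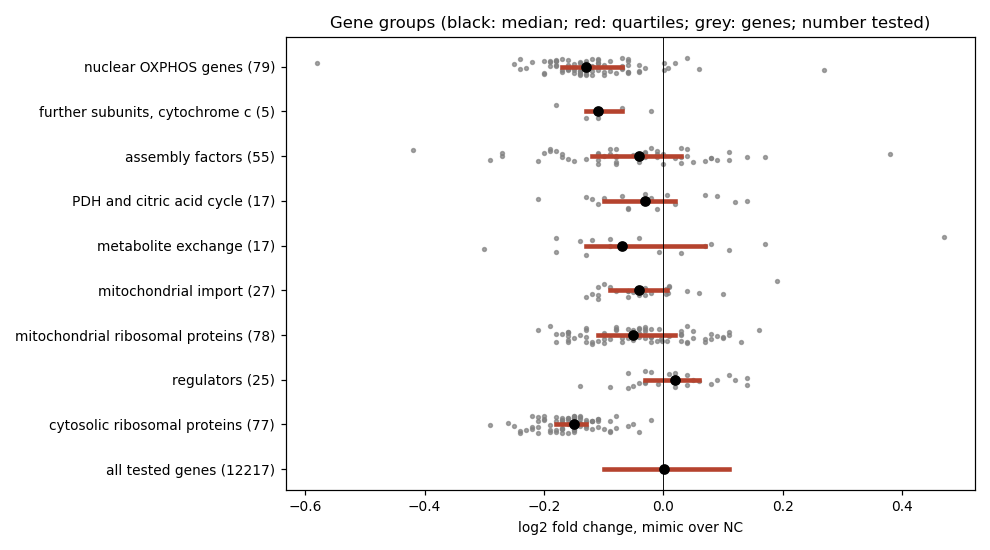
Log2 fold changes of mimic over NC by gene group, with grey points for genes, black points for medians and red lines for quartiles; numbers in brackets are the tested genes. The OXPHOS genes at a median of −0.13 and the cytosolic ribosomal protein genes at −0.15 lie left of the other mitochondrial lists, whose medians run from −0.11 to 0.02, and of all tested genes.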

How the data were processed

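The authors deposited 1 table of raw read counts per gene, with a column per library. Trimmomatic, HISAT2 and HTSeq are named per the submitters' processing notes, without roles or versions. Libraries came from a stranded mRNA kit, per the labels' protocols. The genome build, gene models and strandedness used in counting were not given in the sources used here, and no coordinates are printed. Reads of overlapping genes and near-identical copies could not be told apart, and 20 of the 79 genes overlap another gene in RefSeq (assembly ARS-UCD2.0), which served for names and neighbours.

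Groups and replicate numbers came from the sample titles. A filter on low counts (filterByExpr in edgeR, with a minimum count of 10 and a minimum total of 15) passed 12217 genes. Mimic was compared with NC by edgeR's quasi-likelihood test (edgeR 4.0.16, limma 3.58.1, R 4.3.3), robust and two-sided, with TMM scaling and Benjamini-Hochberg adjustment over all tested genes at 0.05. The SE of a log2 fold change was its size over the root of the F statistic. CPM used TMM-scaled totals, and log2 CPM a prior count of 2. The code was tested on simulated counts. Alternatives were RLE and upper quartile scaling, no filter, a stricter filter (1 CPM in 3 libraries), DESeq2 1.42.0, limma-voom, a replicate block and leaving out each library.

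The members and lists were chosen with earlier results of these data known. The rule named, in each complex, the 2 genes with the highest CPM, the smallest p and the highest and lowest fold change, with catalytic subunits, isoform groups and, in other lists, called genes and those of smallest p. Protein lengths and promoter motifs were not analysed here, and 1 gene that the rule names is not reported here. Floors cover counting error only. Counts of genes without overlap between groups, with each library left out, were added after seeing the data.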

Additional observations from a re-analysis of the deposited data

How the results depend on the processing

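The median log2 fold change of the 79 genes stayed between −0.18 and −0.10 under every alternative run, including centring on all tested genes and the list widened by further subunits. The number called lower was 0 with edgeR and with limma-voom, 1 with DESeq2 and 4 with the replicate block (NDUFA13, NDUFA3, NDUFV1 and ATP5ME). It ran from 0 to 3 with 1 library left out, and none was called higher in any of these. The groups did not overlap, lower in mimic, for 19 to 55 of the 79 genes with 1 library left out, against 12.7% to 18.4% of all tested genes. Over all tested genes, 525 were higher and 263 lower, against 816 and 496 with the replicate block, and 275 to 731 higher and 82 to 414 lower with 1 library left out. The cytosolic ribosomal protein genes called lower numbered 0 to 19 over the alternatives. The replicate numbers are not said to mark shared cultures, so same-numbered libraries were not taken as pairs. Deviations of same-numbered libraries correlated at −0.0515, 0.128 and 0.189 over 12217 genes. Those of unlike-numbered libraries ran from −0.287 to 0.166, so these values cannot decide whether the numbers mark pairs. Signs changed for genes near 0. UQCRB, at 0.00081, stood at −0.0036 with RLE scaling and with DESeq2, −0.0091 with upper quartile scaling, −0.0033 without a filter, −0.0021 with the stricter filter and −9.9e-05 with limma-voom. With 1 library left out the log2 fold change ran from −0.03 to 0.03 for UQCRB, −0.03 to 0.12 for NDUFC1, −0.13 to 0.01 for ATP5MC1 and −0.10 to 0.0083 for ATP5PF. The library medians of centred log2 CPM over the 79 genes averaged −0.06 ± 0.04 in mimic libraries and 0.06 ± 0.08 in NC libraries (SD, n = 3 each). The median standard error of a single gene's log2 fold change was 0.08.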
